A study of Mus musculus with 14 samples.

Results

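The enteroendocrine hormones and markers of the ileum mucosa were examined in mice fed a high-fat diet with and without NCoR1 in the intestinal epithelium. The 10 genes were taken by symbol from the count table: the granule proteins Chga and Chgb, the hormone genes Gcg, Pyy, Nts, Cck, Sct and Gip, the serotonin-synthesizing enzyme Tph1 and the transcription factor Neurod1. They are 10 of 54532 genes in the table, and 10 of 10 passed the filter on low counts that left 13846 genes for testing. RNA was sequenced from the scraped ileum mucosa of 7 WT mice, which carried NCoR1 flox/flox alleles without Cre, and 7 IKO mice, in which the same floxed alleles were deleted by a Cre under the villin promoter. All 14 mice were male and were fed the high-fat diet (HFD) for 15 weeks. By the study's methods they were 7 to 8 weeks old when it began. A figure legend on the phenotype experiments gives an older age, with chow before the switch to HFD. The villin promoter drives Cre in the gut epithelium as a whole, so the model does not single out enteroendocrine cells.

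Enteroendocrine cells are scattered, rare cells of the gut epithelium that sense nutrients in the lumen and release peptide hormones or serotonin into the blood and onto nearby nerve endings. Subtypes are set apart by what they make. L cells make proglucagon peptides, among them GLP-1, together with PYY, N cells make neurotensin, I cells make cholecystokinin, K cells make GIP, S cells make secretin and enterochromaffin cells make serotonin, and many cells make more than a single hormone. GIP is known mainly from the proximal small intestine, and GLP-1, PYY and neurotensin mainly from the ileum and colon. The cells arise from crypt progenitors through Neurog3 and then Neurod1 and store their products in dense-core granules that hold chromogranins.

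To show the regulatory sequence next to the hormones that the results turn on, the 250 bases before the RefSeq start of Gip, Sct, Pyy and Gcg are given 5' to 3' on the strand of the gene, in the GRCm38 assembly. Gip is shown for the largest difference between genotypes, Sct and Pyy for the closest relation across mice, and Gcg as an L cell hormone next to Pyy. Capitals mark E-boxes (CANNTG, the class of site that Neurod1-type factors bind) and the nuclear receptor half-site AGGTCA, either of them on either strand.
Gip (chr11:96024295-96024544, plus strand): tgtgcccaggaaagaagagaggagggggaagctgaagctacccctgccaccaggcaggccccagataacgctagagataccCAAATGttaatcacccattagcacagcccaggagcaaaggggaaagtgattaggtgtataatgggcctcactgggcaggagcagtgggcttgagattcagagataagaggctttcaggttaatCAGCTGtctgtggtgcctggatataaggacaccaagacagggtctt
Sct (chr7:141279134-141279383, minus strand): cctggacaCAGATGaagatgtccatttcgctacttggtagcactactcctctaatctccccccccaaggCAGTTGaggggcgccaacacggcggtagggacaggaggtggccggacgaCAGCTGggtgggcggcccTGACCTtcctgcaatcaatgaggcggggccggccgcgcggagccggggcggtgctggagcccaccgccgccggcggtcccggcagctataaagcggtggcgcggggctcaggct
Pyy (chr11:102107833-102108082, minus strand): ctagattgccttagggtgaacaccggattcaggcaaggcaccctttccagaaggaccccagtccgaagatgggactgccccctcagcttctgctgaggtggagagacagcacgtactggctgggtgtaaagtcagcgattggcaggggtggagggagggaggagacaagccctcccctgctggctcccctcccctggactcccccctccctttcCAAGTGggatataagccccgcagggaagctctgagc
Gcg (chr2:62483654-62483903, minus strand): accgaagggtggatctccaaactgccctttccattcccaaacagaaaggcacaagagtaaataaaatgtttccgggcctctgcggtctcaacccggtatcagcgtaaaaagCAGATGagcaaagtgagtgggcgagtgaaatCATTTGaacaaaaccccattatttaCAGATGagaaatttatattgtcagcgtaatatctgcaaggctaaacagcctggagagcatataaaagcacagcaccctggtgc
The Gip window held 2 E-boxes, Sct 3, Pyy 1 and Gcg 3. CAGATG, a form of E-box counted among these, occurred 2 times in Gcg, 1 time in Sct and not in Gip or Pyy. The half-site occurred 1 time in Sct and not in the other windows. Over 12 windows of the 10 genes, 10 held an E-box, 3 held CAGATG, 2 held the half-site and 0 held GTTGCC, the half-site of RFX factors. Over all 32536 RefSeq mouse promoters of this length, 66.2% held an E-box, 14.4% CAGATG, 14% AGGTCA and 10.3% GTTGCC. These are matches of letters only, and factor binding was not measured.

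Depth was 14749669 to 21557468 counts per mouse. The targeted gene followed the labels. Ncor1 was at 135 ± 31.3 CPM (counts relative to library size; SD, n = 7) in WT and 50.6 ± 11 CPM in IKO mice (log2 fold change -1.41, SE 0.18, adjusted p = 0.00051), without overlap. Some libraries stood apart. The share of counts from mitochondrially encoded genes was 50.3% for IKO 4 and 23.9% for WT 3, beside 3.49% to 10.3% for the other mice. Smooth muscle markers summed to 15165 CPM in WT 4 and at most 200 CPM in the other WT mice. Among IKO mice they reached 1260 CPM, in IKO 1, with a median of 139 CPM. Markers of enteric neurons summed to 406 CPM in WT 4 against at most 10.5 CPM in the other WT mice. In IKO mice they summed to 2.3 to 37.5 CPM, highest in IKO 1. Because the samples are bulk mucosa, fewer cells of a type and less RNA per cell cannot be told apart in what follows.

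The hormone and marker genes were expressed in every mouse. Per length of gene, on the deposited FPKM scale, the order in WT mice was Sct (144 ± 86.2 FPKM, SD, n = 7), Nts (116 ± 53), Pyy (94.7 ± 50), Gip (60.7 ± 42.4), Chga (22.4 ± 6.79), Gcg (10.8 ± 6.4), Chgb (9.34 ± 2.36), Cck (5.48 ± 1.81), Neurod1 (1.28 ± 0.636) and Tph1 (0.588 ± 0.185). The ranges of mean ± SD of neighbours in this order overlapped, except between Cck and Neurod1. In IKO mice Sct was at 115 ± 62.4 FPKM, Pyy at 97.4 ± 55.6, Nts at 93.2 ± 43.4 and Gip at 23.5 ± 12.8 FPKM, and Chga, Gcg, Chgb, Cck, Neurod1 and Tph1 followed in the same order as in WT mice. All 10 genes were thus detected in the tissue, the distal hormones Pyy and Nts among the highest. The deposited FPKM are rescaled counts per kilobase, so the same library effects enter them.

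With edgeR, 0 of the 10 genes passed an adjusted p of 0.05 between IKO and WT mice. Over all genes tested, 8.67% passed, 4.28% lower and 4.38% higher in IKO mice. In 0 of the 10 genes did the 2 genotypes fail to overlap, where 3.1% of all genes tested had groups without overlap. The log2 fold change was below 0 for 8 of the 10 genes, with a median of -0.25 beside -0.09 over all genes tested. At an unadjusted p under 0.05, 2 of the 10 genes were lower in IKO mice, Gip and Neurod1. Of all 13846 genes tested, 4213 were under that unadjusted p in either direction, so 2 of 10 does not exceed the background. The plot of levels by mouse shows all of the values.

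**Figure D1:**
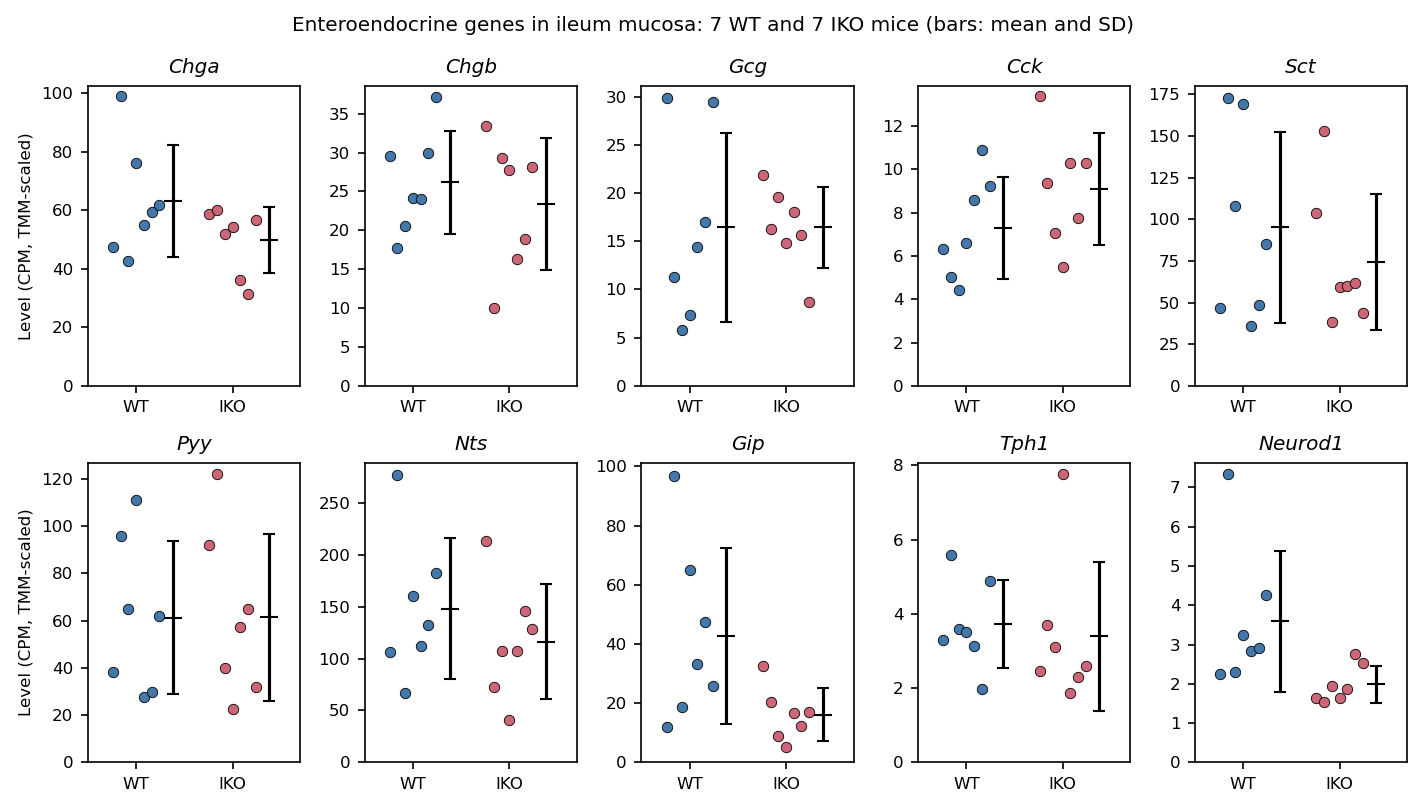
Each point is the level of a gene in 1 mouse, in CPM scaled by TMM factors on a linear axis from 0, for 7 WT (blue) and 7 IKO (red) mice, with the mean and SD beside each group. The genotypes overlap in all 10 panels, and for Gip and Neurod1 all 7 IKO mice lie below the WT medians of 33.4 and 2.91 CPM.

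Gip had the largest difference among the hormone genes. Gip encodes glucose-dependent insulinotropic polypeptide, the incretin of K cells. The gene lies at chr11:96024545-96030831 on the plus strand. Its levels in WT mice 1 to 7 were 11.8, 96.7, 18.7, 65, 33.4, 47.4 and 25.7 CPM. In IKO mice 1 to 7 they were 32.4, 20.5, 8.92, 5.14, 16.6, 12.3 and 16.9 CPM. All 7 IKO mice were below the WT median, while WT 1, WT 3 and WT 7 lay within the range of the IKO mice. The level in IKO mice was 0.379 times that in WT mice, with an interval at 95% confidence of 0.195 to 0.734. On the log2 scale the difference was -1.40 (SE 0.45, adjusted p = 0.0608 in edgeR). The unadjusted p was 0.00676 in edgeR, and an exact two-sided permutation test of the mean log2 level gave p = 0.0286, where 0.000583 is the smallest value possible and 10 genes were computed.

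Neurod1, the basic helix-loop-helix factor of the lineage, lies at chr2:79452521-79456751 on the minus strand. WT mice 1 to 7 had 2.25, 7.34, 2.31, 3.23, 2.83, 2.91 and 4.25 CPM. IKO mice 1 to 7 had 1.64, 1.53, 1.94, 1.64, 1.86, 2.75 and 2.53 CPM. All 7 IKO mice were again below the WT median, and IKO 6 and IKO 7 lay above the lowest WT mice. Neurod1 had a log2 fold change of -0.85 (SE 0.30, interval -1.48 to -0.22, p = 0.0111, adjusted p = 0.0771 in edgeR), and the exact permutation test gave p = 0.00641. Counts of Neurod1 were low, at 15 to 120 per library. Cerkl overlaps the gene on the same strand in the annotation and held 43 counts over all libraries beside 735 for Neurod1.

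Gip and Neurod1 lay near the threshold, and their calls moved with the method. DESeq2 called both lower in IKO mice (adjusted p = 0.0221 for Gip and 0.0483 for Neurod1), but it called 16.5% of all genes, so 2 of 10 is close to its background. edgeR restricted to genes with at least 10 counts in every sample also called both (0.047 and 0.0482), with 10.9% of all genes called. Without WT 1, which had the lowest Gip among WT mice, edgeR called Gip (log2 fold change -1.58, adjusted p = 0.0413) and 5.86% of all genes. Gip passed in 3 of 25 alternatives, with adjusted p from 0.0221 to 0.157, and Neurod1 in 2 of 25, from 0.0482 to 0.188. The direction was lower in IKO mice in all 25 alternatives for both genes. WT 2 was the highest WT mouse for both, and without it the log2 fold change was -1.06 for Gip (adjusted p = 0.103) and -0.57 for Neurod1 (adjusted p = 0.123).

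**Figure D2:**
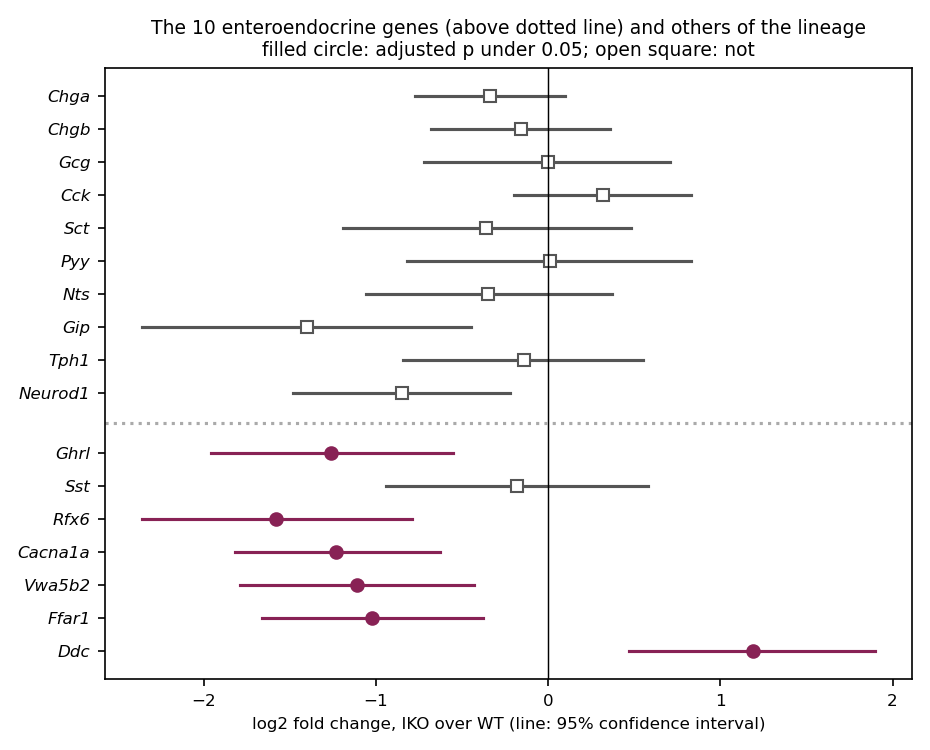
Log2 fold change of IKO over WT from edgeR, with its 95% confidence interval, for the 10 hormone and marker genes (above the dotted line) and for Sst and the genes of the hormone, factor, granule, sensor and serotonin lists that passed the adjusted threshold of 0.05 (below it). The intervals of Gip (-2.36 to -0.45) and Neurod1 (-1.48 to -0.22) lie below 0 without passing the adjusted threshold.

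The granule proteins gave smaller differences. Chga, chromogranin A, the general marker of these cells, ranged from 42.6 to 99.1 CPM in WT mice (median 59.4) and from 31.5 to 60.1 CPM in IKO mice (median 54.2). Its log2 fold change was -0.34 (SE 0.20, adjusted p = 0.269), or -0.19 without WT 2, with an interval of -0.77 to 0.10, and 6 of 7 IKO mice were below the WT median. Chgb, chromogranin B, ranged from 17.7 to 37.2 CPM in WT (median 24.2) and from 9.96 to 33.4 CPM in IKO mice (median 27.7). Its log2 fold change was -0.16 (SE 0.25, adjusted p = 0.679), between -0.27 without IKO 1 and -0.03 without IKO 2, and the lowest value in each genotype was in mouse 2, the one with the highest Chga and Sct. The intervals leave room for a fold between 0.586 and 1.07 for Chga and between 0.622 and 1.28 for Chgb.

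The hormones of L and N cells had wide and overlapping ranges. Gcg, which encodes proglucagon, lies at chr2:62474530-62483650 on the minus strand. WT mice 1 to 7 had 29.9, 11.3, 5.78, 7.36, 14.4, 17 and 29.4 CPM of Gcg, and IKO mice 1 to 7 had 21.9, 16.3, 19.6, 14.8, 18, 15.7 and 8.73 CPM. The IKO mice, apart from IKO 7, lay within a narrower band than the WT mice, in the middle of the WT range. The log2 fold change was -0.00 (SE 0.34, interval -0.72 to 0.71, adjusted p = 0.996). Its sign turned in 12 of 25 alternatives, so Gcg has no direction in these data.

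Pyy encodes peptide YY, which slows gut transit and reduces food intake, and lies at chr11:102106676-102107832 on the minus strand. Pyy in WT mice 1 to 7 was at 38.3, 95.9, 64.8, 111, 27.7, 29.6 and 61.9 CPM, and in IKO mice 1 to 7 at 91.9, 122, 39.9, 22.6, 57.2, 64.9 and 31.8 CPM. High and low mice occurred in both genotypes. Its log2 fold change was 0.01 (SE 0.39, adjusted p = 0.995) and changed sign in 9 of 25 alternatives. Nts, neurotensin, ranged from 67 to 277 CPM in WT (median 132) and from 40.7 to 213 CPM in IKO mice (median 107), with a log2 fold change of -0.35 (SE 0.34, adjusted p = 0.503). Single mice moved the Nts value, to -0.12 without WT 2, -0.20 without IKO 4 and -0.56 without IKO 1.

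Sct encodes secretin, which stimulates pancreatic bicarbonate release, and lies at chr7:141278330-141279133 on the minus strand. WT mice 1 to 7 had 46.9, 173, 108, 169, 36.2, 48.3 and 85.3 CPM of Sct, and IKO mice 1 to 7 had 104, 153, 38.4, 59.1, 60, 61.5 and 43.9 CPM. WT 2, WT 4 and IKO 2 were high, and the groups overlapped over most of their range. Between genotypes the log2 fold change was -0.36 (SE 0.39, adjusted p = 0.559). The Sct value was -0.14 without WT 2, -0.16 without WT 4 and -0.63 without IKO 2. Cck, cholecystokinin, which contracts the gallbladder and signals satiety, ranged from 4.42 to 10.9 CPM in WT (median 6.6) and from 5.47 to 13.4 CPM in IKO mice (median 9.37). Its log2 fold change was 0.32 (SE 0.24, adjusted p = 0.391), or 0.20 without IKO 1, the largest of the 2 values above 0 among the 10 genes.

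Tph1, the rate-limiting enzyme of serotonin synthesis in enterochromaffin cells, ranged from 1.99 to 5.6 CPM in WT (median 3.51) and from 1.86 to 7.76 CPM in IKO mice (median 2.59). For Tph1 the log2 fold change was -0.14 (SE 0.33, adjusted p = 0.797), and it ran from -0.47 without IKO 4 (adjusted p = 0.255) to -0.01 without WT 2. The highest Tph1 was in IKO 4, the library with the highest mitochondrial share, which also had the lowest Pyy, Nts and Gip of all mice. The part of the mitochondrial share in these values was not tested. Without both WT 3 and IKO 4, Gip kept a log2 fold change of -1.38 (adjusted p = 0.0839).

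Hormone totals were high in a few mice of each genotype. The summed FPKM of the 10 genes was 281 to 819 in WT (median 368) and 216 to 578 in IKO mice (median 339). WT 2 had the highest sum, 819, and the highest level of 5 of the 10 genes, followed by WT 4 with 691, IKO 1 with 578 and IKO 2 with 564. Sct was the leading gene by FPKM in 6 of the mice (WT 2, WT 3, WT 4, IKO 2, IKO 4 and IKO 5), and Nts led in the others. Of the 10 genes, 0 had their highest level in WT 4, the mouse with the most smooth muscle and neuron markers. IKO 1, the IKO mouse with the most of these markers, had the highest level of 1 gene, Cck. It was the highest IKO mouse for Chgb, Gcg, Cck, Nts and Gip, and not for the others.

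The mean share of Gip in the hormone total was lower in IKO mice. Gip made up 12.5% ± 5.57 (SD, n = 7) of the summed FPKM in WT mice, with a range of 5.9% to 19.7%, and 6.03% ± 1.89 in IKO mice, with a range of 3.51% to 8.45%. Sct took 29.5% ± 8.65 in WT and 30.2% ± 8.65 in IKO mice, and Nts took 25.7% ± 6.9 and 25.6% ± 9.27. Pyy took 20% ± 4.82 in WT and 24.5% ± 6.17 in IKO mice. These shares are descriptions and rest on the same values as the levels.

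**Figure D3:**
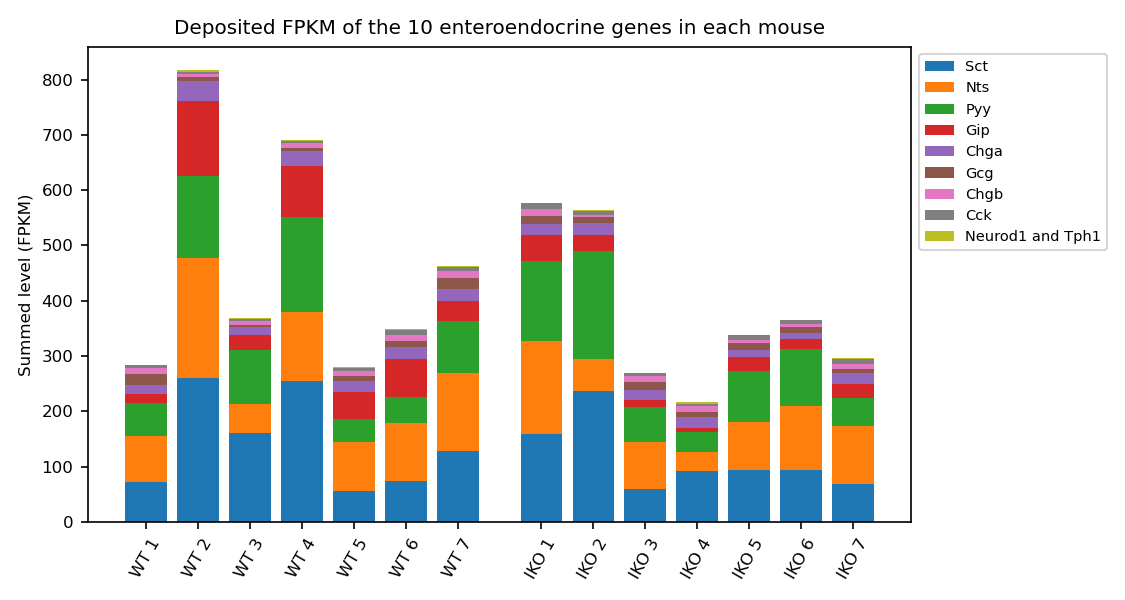
Stacked bars give the deposited FPKM of the 10 hormone and marker genes in each of the 14 mice, from 0, with 1 color per gene and the 2 lowest genes combined. The sums run from 216 in IKO 4 to 819 in WT 2, and the red Gip segment takes 12.5% on average in WT and 6.03% in IKO mice.

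Sct and Pyy rose and fell together across mice. To ask which of the genes varied together within a genotype, log2 levels were centred on the mean of their genotype and correlated over the 14 mice, for 45 pairs of the 10 genes and 20 pairs with 2 genes that mark gut regions. Sct and Pyy had r = 0.89 (permutation p = 6.00e-05, adjusted p = 0.0039 over the 65 relations) and rho = 0.89 (permutation p = 0.00014, adjusted p = 0.0091). Without WT 2 and IKO 2, the mice farthest from the median of Sct, r was 0.84. It was 0.98 within WT and 0.81 within IKO mice. Both are short genes, of 645 bases for Sct and 631 bases for Pyy in the files, and the part of gene length in this relation was not tested.

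Of the 45 pairs, 28 had r above 0 and the median r was 0.19. Sct with Pyy was the 1 pair under an adjusted p of 0.05. The next were Nts with Gip (r = 0.72, rho = 0.64, permutation p = 0.00487, adjusted p = 0.158, and r = 0.57 without WT 3 and IKO 4) and Nts with Neurod1 (r = 0.67, rho = 0.66, permutation p = 0.00746, adjusted p = 0.162). Cck with Tph1 had the lowest value (r = -0.62, rho = -0.54, permutation p = 0.0229, adjusted p = 0.372). Gcg and Pyy, both L cell products, had r = -0.16 (rho = -0.02, permutation p = 0.599, adjusted p = 0.846), with -0.50 within WT and 0.49 within IKO mice.

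**Figure D4:**
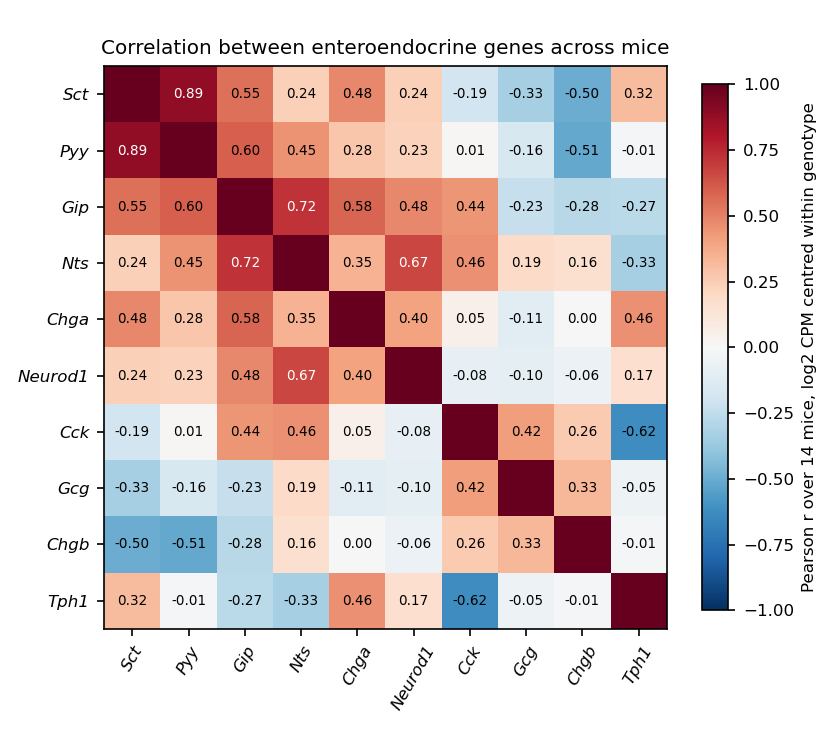
Each cell is Pearson r between 2 of the 10 genes over 14 mice, on log2 CPM centred within genotype, from -1 (blue) to 1 (red), with the genes ordered to set similar ones side by side. Sct and Pyy stand out at 0.89, and Gcg and Chgb have negative r with both of them.

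Gip was also set against markers of gut position, since the hormone is known from more proximal segments. With Gata4, a factor of the proximal small intestine, Gip had r = 0.55 over the 14 mice (rho = 0.48, permutation p = 0.0708, adjusted p = 0.46), 0.60 within WT and 0.60 within IKO mice. With Slc10a2, the ileal bile acid transporter, it had r = -0.38 (rho = -0.50, permutation p = 0.207, adjusted p = 0.612), -0.80 within WT and 0.20 within IKO mice. Gata4 itself was at 51.9 CPM on average in both genotypes (log2 fold change -0.00, adjusted p = 1). Of 6 proximal markers 1 passed, Adh1, an alcohol and retinol dehydrogenase, which rose from 49.4 ± 24.9 CPM in WT to 219 ± 98.4 CPM in IKO mice (log2 fold change 2.15, SE 0.37, adjusted p = 0.00448). Lct, the lactase of proximal enterocytes, was at 799 ± 590 CPM in WT and 398 ± 225 CPM in IKO mice (log2 fold change -1.01, SE 0.59, adjusted p = 0.254). Of 6 distal markers 0 passed in edgeR, with 1, Fgf15, lower at an unadjusted p under 0.05 and called by DESeq2. Of all 13846 genes tested, 4213 were under that unadjusted p in either direction, and DESeq2 called 16.5% of genes. Of 3 colon markers tested 1 passed, B3gnt7, a glycosyltransferase (log2 fold change 1.18, SE 0.27, adjusted p = 0.0189). For these position lists, the edgeR background is 8.67% of all genes tested.

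Genes outside the lists that were most like the 10 genes were found by correlating their centred levels over the 14 mice with the mean centred and scaled level of the 10. Among them were Serpinf2 (r = 0.89), Gm20033 (0.84), 4933415A04Rik (0.83), Spindoc (0.79) and A930038B10Rik (0.76). They are the top of a ranking of all tested genes outside the lists. No p-value was computed, and the top of so long a ranking over 14 mice can reach high r by chance. In WT mice Serpinf2 was at 1.15 ± 0.499 CPM, Gm20033 at 1.02 ± 0.837 CPM and Spindoc at 12.1 ± 5.67 CPM. Sst, somatostatin, the hormone of D cells, had r = 0.86 with the same mean. Among the 10 genes themselves, r with that mean ran from 0.08 for Chgb to 0.81 for Nts, where each gene is part of the mean.

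Other hormones of the lineage were examined as a list of 8 genes, of which 4 were tested. Of these, 1 passed as lower (4.28% over all genes tested) and 0 as higher (4.38%). Ghrl, which encodes the appetite hormone ghrelin, fell from 1.74 ± 0.61 CPM in WT to 0.715 ± 0.312 CPM in IKO mice (log2 fold change -1.26, SE 0.33, adjusted p = 0.0329). IKO 1, at 1.34 CPM, lay above WT 1 and WT 7, at 0.858 and 1.24 CPM, and the other 6 IKO mice lay below every WT mouse. The Ghrl call was lost in 11 of 24 alternatives, among them without WT 4 (adjusted p = 0.0511). Sst was at 55.5 ± 33.2 CPM in WT and 49.1 ± 24 CPM in IKO mice (adjusted p = 0.767), and Tac1, the tachykinin precursor, was at 5.13 ± 6.74 and 3.33 ± 1.8 CPM (adjusted p = 0.485). Gast, gastrin, had 0 counts in every mouse.

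Among 12 transcription factors of the lineage 7 were tested, 1 passed as lower (4.28% over all genes tested) and 0 as higher (4.38%). The median log2 fold change of the 7 was -0.51, beside -0.09 over all genes tested. Rfx6, a winged-helix factor required for enteroendocrine and islet cells, fell from 1.45 ± 0.702 CPM in WT to 0.488 ± 0.181 CPM in IKO mice. WT mice 1 to 7 had 0.98, 2.77, 1.84, 0.712, 1.57, 0.922 and 1.38 CPM, and IKO mice 1 to 7 had 0.468, 0.413, 0.388, 0.765, 0.206, 0.631 and 0.542 CPM. WT 4 and IKO 4 alone made the groups overlap. The log2 fold change was -1.58 (SE 0.37, adjusted p = 0.0194), at no more than 43 counts in any library, and the call was lost in 2 of 22 alternatives, without a filter on low counts (0.0809) and with the replicate block (0.0939). Insm1, a zinc-finger factor of the same cells, was at 1.93 ± 1.15 CPM in WT and 1.91 ± 0.57 CPM in IKO mice (adjusted p = 0.972), and Mlxipl, the carbohydrate response factor ChREBP, was at 119 ± 93.3 and 85.8 ± 20.2 CPM (adjusted p = 0.37). Neurog3 did not pass the filter on low counts.

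Genes of granules and regulated release formed a list of 14, of which 12 were tested. Of these, 2 passed as lower (4.28% over all genes tested) and 0 as higher (4.38%). The median log2 fold change was -1.17, beside -0.09 over all genes tested. The list was chosen with earlier results of these data known, so the count of calls may follow from how it was filled. Cacna1a, a pore subunit of voltage-gated calcium channels that couple depolarization to release, was at 6.7, 10, 7.07, 18.1, 6.8, 7.04 and 8.14 CPM in WT mice 1 to 7. In IKO mice 1 to 7 it was at 3.98, 3.89, 5.65, 2.4, 4.33, 4.65 and 2.29 CPM. The genotypes did not overlap, and the log2 fold change was -1.23 (SE 0.28, adjusted p = 0.0175), or -0.97 (adjusted p = 0.0266) without WT 4. The Cacna1a call was lost in 1 of 25 alternatives, the replicate block (adjusted p = 0.0803). Vwa5b2 fell from 3.44 ± 1.86 to 1.59 ± 0.397 CPM (log2 fold change -1.11, SE 0.32, adjusted p = 0.0443), a call lost in 14 of 23 alternatives and without WT 2 (adjusted p = 0.063).

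The median of that list moved with WT 4. Of the 14 granule and release genes, 12 had their highest level in WT 4, and without this mouse the median was -0.36 and 2 genes passed as lower. Resp18 was at 4.25 ± 7.07 CPM in WT and 1.31 ± 0.922 CPM in IKO mice (adjusted p = 0.183), with 20.1 CPM in WT 4. Vamp2, a vesicle fusion protein, was at 33.5 ± 7.99 and 31.2 ± 1.63 CPM (adjusted p = 0.646). Of 13 enteric neuron markers, 12 were highest in WT 4, and neurons use the same granule proteins. The part of neuron RNA in these values was not tested.

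Genes of prohormone processing were also highest in WT 4. Of 6 genes 5 were tested and 0 passed in edgeR or DESeq2, with 0 at an unadjusted p under 0.05. The median log2 fold change was -1.02 with all 14 mice and 0.09 without WT 4, in which 5 of the 6 genes were highest. Cpe, carboxypeptidase E, was at 30.1 ± 50.8 CPM in WT, with 145 CPM in WT 4, and at 11.7 ± 11.9 CPM in IKO mice (adjusted p = 0.219). Pcsk1n, an inhibitor of prohormone convertase, was at 12.2 ± 28.4 and 2.67 ± 2.18 CPM (adjusted p = 0.185).

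**Figure D5:**
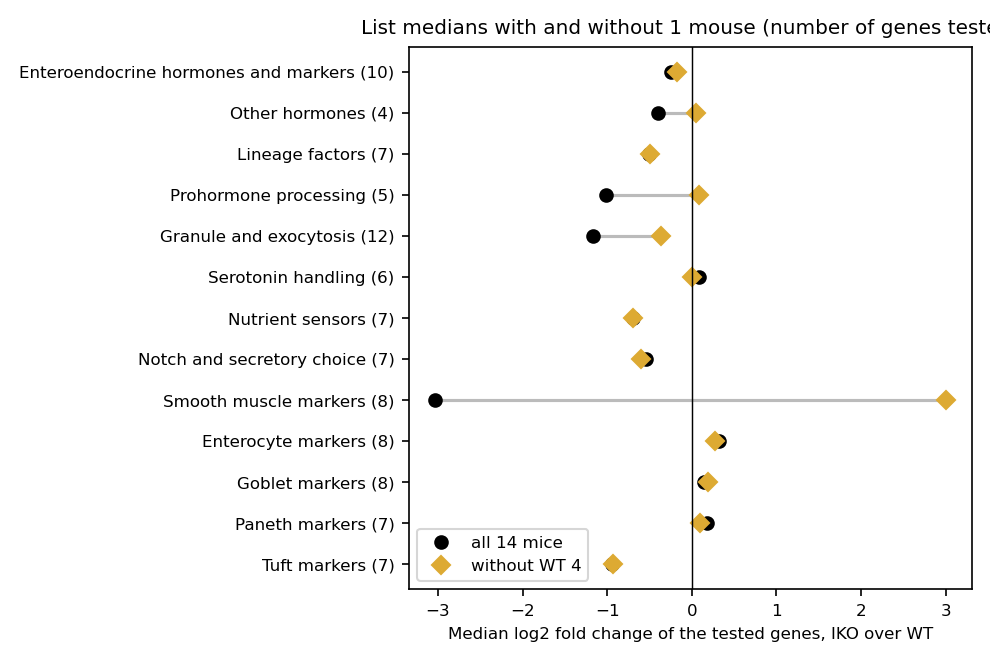
Median log2 fold change of IKO over WT over the tested genes of each list, with all 14 mice (black circles) and without WT 4 (yellow diamonds), with the number of genes tested in brackets. The 10 hormone and marker genes move from -0.25 to -0.17, prohormone processing from -1.02 to 0.09, granule and exocytosis from -1.17 to -0.36 and smooth muscle from -3.04 to 3.01.

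Serotonin handling held 6 genes, all tested, with 1 higher (4.38% over all genes tested) and 0 lower (4.28%). Ddc, aromatic amino acid decarboxylase, which acts after Tph1 in serotonin synthesis and is also made by enterocytes, was at 80.5 ± 53 CPM in WT and 183 ± 40.8 CPM in IKO mice (log2 fold change 1.19, SE 0.34, adjusted p = 0.0424). WT 5 and WT 6, at 162 and 149 CPM, overlapped with the IKO range of 139 to 252 CPM, and the call was lost in 15 of 25 alternatives, among them without WT 2 (adjusted p = 0.0597) and without WT 4 (0.0701). Slc6a4, the serotonin transporter, was at 131 ± 64.3 and 144 ± 44.4 CPM (adjusted p = 0.78). Maoa, which breaks serotonin down, was at 1218 ± 550 CPM in WT and 2049 ± 441 CPM in IKO mice (log2 fold change 0.75, SE 0.28, adjusted p = 0.089).

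Of 14 nutrient sensors 7 were tested, 1 passed as lower (4.28% over all genes tested) and 0 as higher (4.38%). Ffar1, a receptor for long-chain fatty acids on hormone cells, fell from 4.82 ± 1.97 CPM in WT to 2.38 ± 0.577 CPM in IKO mice (log2 fold change -1.02, SE 0.30, adjusted p = 0.0487). This call is fragile, since it was lost in 20 of 25 alternatives, with adjusted p up to 0.145. Lpar5 was at 15.8 ± 12.4 and 19 ± 9.68 CPM (adjusted p = 0.759), and Slc5a1, the glucose transporter SGLT1, at 2267 ± 1160 and 3002 ± 1516 CPM (adjusted p = 0.543). Of 15 receptors for the gut hormones only Sstr5, a somatostatin receptor, passed the filter on low counts, at 1.65 ± 0.547 CPM in WT and 1.06 ± 0.753 CPM in IKO mice (adjusted p = 0.341).

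The choice between absorptive and secretory fate runs through Notch signals, and 0 of 7 genes of that list passed in edgeR. At an unadjusted p under 0.05, 2 were lower in IKO mice, Gfi1 and Sox4, and DESeq2 called Gfi1. Of all 13846 genes tested, 4213 were under that unadjusted p in either direction, and DESeq2 called 16.5% of genes. Atoh1, the factor of all secretory cells, was at 15.1 ± 7.12 CPM in WT and 20.2 ± 3.37 CPM in IKO mice (adjusted p = 0.296), and Hes1, its Notch-driven repressor, was at 17.6 ± 5.07 and 17.8 ± 5.15 CPM (adjusted p = 0.979).

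Markers of the neighbouring epithelial cells are given for comparison. Of 8 enterocyte, 8 goblet, 7 Paneth and 6 stem cell markers tested, 0 passed in edgeR. At an unadjusted p under 0.05, 1 enterocyte marker (Krt20) and 1 goblet marker (Spink4) were higher, 3 stem cell markers (Lgr5, Olfm4, Smoc2) were lower, and 0 Paneth markers passed. Of these, DESeq2 called Spink4 higher. For these lists and those below, the background is 4213 of 13846 genes under that unadjusted p in either direction. As background for the calls, edgeR called 8.67% of genes tested and DESeq2 called 16.5% of genes. The median log2 fold changes were 0.32 for enterocyte, 0.14 for goblet, 0.18 for Paneth and -0.60 for stem cell markers. Without WT 4 the stem cell median was -0.27 and the Paneth median 0.10. Without both WT 4 and IKO 4 the Paneth median turned to -0.36, while the enterocyte and goblet medians stayed above 0. Of 5 enteric glia markers 0 passed the filter on low counts, and 5 were highest in WT 4. Tuft cell markers, another rare chemosensory epithelial type, had a median of -0.94 over 7 tested genes. Of these 7, Avil, an actin-binding protein, passed as lower (8.98 ± 3.36 CPM in WT and 3.98 ± 1.74 CPM in IKO mice, adjusted p = 0.0413), a call lost in 15 of 25 alternatives. At an unadjusted p under 0.05, 5 of the 7 tuft markers were lower, among them Avil, Dclk1 and Rgs13, and DESeq2 called 4. Leukocyte markers were lower by their median as well, at -1.37 over 6 tested genes and -1.51 without WT 4. Of these 6, 0 passed in edgeR, 4 were lower at an unadjusted p under 0.05 and DESeq2 called 1, Ptprc. The summed leukocyte markers were at 51 to 500 CPM in WT (median 91.7, highest in WT 3) and 44.7 to 103 CPM in IKO mice (median 67.5). Cd79a, of B cells, was at 46 ± 64 CPM in WT and 13 ± 5.36 CPM in IKO mice (adjusted p = 0.119), and Lyz2, of macrophages, at 62.8 ± 64 and 25.1 ± 9.42 CPM (adjusted p = 0.132). The part of tuft cell or leukocyte RNA in the values of Gip, Neurod1 and the other lower genes was not tested. The pancreas markers, checked because islets share many of these genes, summed to at most 1.56 CPM in every mouse except IKO 4, at 10.8 CPM, and Ins1 was at 0 in all 14 mice.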

How the data were processed

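Libraries were made from scraped ileum mucosa, 1 per mouse (7 WT, 7 IKO), and genotypes were taken from the sample titles. According to the methods, the authors aligned reads with HISAT2 2.0.5 and counted them with featureCounts 1.5.0-p3 on mm10, and strand settings are not given in the sources used here. The deposited counts are whole numbers per gene without normalization, 14749669 to 21557468 per sample. The deposited FPKM, as tested on the values, are counts per kilobase divided by DESeq2 size factors and a constant. Columns left unmapped to a sample numbered 0.

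Tests used edgeR 4.0.16 in R 4.3.3 on counts (filterByExpr, TMM, glmQLFit and glmQLFTest, genotype as the only term), with Benjamini-Hochberg adjustment over the 13846 genes tested and a threshold of 0.05. TMM factors were 0.9311 to 1.532 in WT and 0.5787 to 0.9674 in IKO libraries. CPM use these factors. For log2 levels a prior count of 2 was added. Exact permutation tests are two-sided. Correlation p-values come from 100000 permutations within genotype. The scripts were tested on simulated data.

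The genes, lists and tests were chosen with earlier results of these data known. Named were all 10 genes, from each other list every gene past the threshold and the 2 tested genes highest per kilobase, the 6 genes outside the lists most like the 10 (1 of them is not reported here), and Ncor1. Gata4, Slc10a2, Gast, Neurog3, Ins1, Gfi1, Sox4, Fgf15, Spink4, Lgr5, Smoc2, Dclk1, Rgs13 and Ptprc were added to these with their values seen. Alternatives were DESeq2 1.42.0, RLE scaling, no filter on low counts, a minimum of 10 counts in each library, limma 3.58.1 on log2(FPKM + 1) and log2(FPKM + 0.1) of genes over 0.5 FPKM in 7 or more mice, counts without mitochondrially encoded genes, the sample number as a replicate block, each mouse left out in turn, and without WT 3 and IKO 4. Leaving out WT 4 and IKO 4 together and limma-voom with sample quality weights were chosen after seeing the data. Promoter sequences are from RefSeq (GRCm38.p6), and 10 of 10 genes matched by symbol. Gene positions are those of the deposited table, and 10 of 10 equal those of GENCODE release M21.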

Additional observations from a re-analysis of the deposited data

Results flagged for a closer look

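In each group of 7 mice, the gap between the highest or lowest mouse and its nearest neighbour was taken on log2 levels. This gap was divided by the log2 range of the group and compared with Dixon's critical value at 95%. The CPM beside each ratio are on the linear scale. Of 40 groups examined, covering 20 genes in WT and IKO mice, 3 passed, where chance gives about 2. Gcg was low in IKO 7 with a ratio of 0.571, at 8.73 CPM beside 14.8 CPM in the next IKO mouse. Cacna1a was high in WT 4 with a ratio of 0.593, at 18.1 CPM beside 10 CPM in the next WT mouse. WT 4 is the library with the most smooth muscle and neuron markers. Ffar1 was low in IKO 7 with a ratio of 0.707, at 1.2 CPM beside 2.28 CPM in the next IKO mouse. The cause of these gaps was not tested.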

How the results depend on the processing

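Of 25 alternatives, 22 called 0 of the 10 genes. DESeq2 called 2, at least 10 counts in every sample called 2, and leaving out 1 mouse gave 0 to 1. The genes called over the whole table numbered 1200 and moved to 2571 with DESeq2, 508 without a filter, 648 without WT 3 and IKO 4, 606 without WT 4 and IKO 4, 1889 with voom sample weights, and 515 to 1371 with 1 mouse left out. The lowest, 515, came without IKO 5 and the highest without WT 2. With the replicate block, 362 genes and 0 of the 10 were called. The correlations of same-numbered mice ran from -0.305 to 0.232. The sample titles give no pairing, and these correlations cannot settle whether same-numbered mice were littermates or shared a cage. Genotype was therefore kept as the only term in the main fit. The direction held in 25 of 25 alternatives for Chga, Chgb, Cck, Gip, Tph1 and Neurod1. Gcg, at -0.00, changed sign with DESeq2 (0.03), RLE scaling (0.02), limma on FPKM (0.18 and 0.22) and the replicate block (0.19), with -0.15 to 0.19 when 1 mouse was left out. Pyy, at 0.01, turned to -0.06 with at least 10 counts in every sample and -0.01 without mitochondrially encoded genes, with -0.25 to 0.22 when 1 mouse was left out. With voom weights Sct turned to 0.10 and Nts to 0.04, and Pyy rose to 0.44 (adjusted p = 0.36 in limma-voom). Without WT 4 and IKO 4 together, Pyy was at 0.36 (adjusted p = 0.548 in edgeR). The cause was not tested. Depth limits Neurod1, Rfx6 and Ghrl, which had at most 120, 43 and 43 counts in a library.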
